A study of Mus musculus with 6 samples.

Results

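The 9 genes described here encode the enzymes of serine synthesis and of the folate one-carbon pathway: Phgdh, Psat1, Psph, Shmt1, Shmt2, Mthfd1, Mthfd1l, Mthfd2 and Aldh1l1. They were chosen by name from the pathway, not by a measured value, but with earlier results of these data known. All 9 were present among the 55703 genes of the deposited table. RNA-seq was performed on interscapular brown adipose tissue (iBAT) from C57BL/6 mice at 8 weeks of age, in 6 libraries. The 3 control libraries came from Wtap flox/flox mice, which carry loxP sites around an exon of Wtap and, per their genotype label, no Cre. The 3 Wtap-BKO libraries came from mice with the same floxed alleles and 1 copy of UCP1-iCre, a recombinase expressed together with Ucp1 from the Ucp1 locus, so that the deletion reaches cells that express Ucp1. WTAP belongs to the methyltransferase complex that deposits m6A on mRNA, and the comparison asks which transcripts of the whole tissue differ when it is deleted in brown adipocytes.

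Cells make serine from the glycolytic intermediate 3-phosphoglycerate through PHGDH, PSAT1 and PSPH, acting in that order. Serine hydroxymethyltransferases then split serine into glycine and a one-carbon unit carried by tetrahydrofolate, SHMT1 in the cytosol and SHMT2 in mitochondria. MTHFD2 and MTHFD1L carry this unit to formate inside mitochondria, MTHFD1 uses formate in the cytosol, and ALDH1L1 oxidises the cytosolic unit to carbon dioxide. The units feed purine, thymidylate and methionine synthesis, and several of these genes are known targets of the transcription factor ATF4 in the amino acid and mitochondrial stress responses.

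Levels are given as FPKM, fragment counts divided by gene length and library size. Comparisons between genes rest on the deposited gene length, which was not checked against the transcripts expressed. Wtap was higher in the libraries labelled Wtap-BKO, at 12.3 ± 0.463 against 8.26 ± 0.326 FPKM (SD, n = 3; limma adjusted p = 0.0160). This call ended with any 1 control library or Wtap-BKO replicate 3 left out, with adjusted p-values up to 0.0670. Only an exon of Wtap is floxed, so a value over the whole gene cannot check the labels. Skeletal muscle markers had summed levels of 31.8 to 46.7 FPKM in 4 libraries, 859 FPKM in flox/flox replicate 2, and 1390 FPKM in the third Wtap-BKO library.

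Psat1 was the 1 enzyme of the set whose transcript rose past the threshold in the libraries labelled Wtap-BKO. Psat1 encodes the aminotransferase of the middle step and was 3.87-fold higher. The enzyme before it, Phgdh, and the one after it, Psph, had higher means but overlapping libraries. In the mitochondrial folate arm Mthfd2 stood above and Shmt2 below the control libraries with no overlap, and neither difference passed the threshold. The cytosolic genes Shmt1, Mthfd1 and Aldh1l1 had log2 differences of -0.27, -0.22 and 0.09, and none was called. Mthfd1 also lay below the control libraries with no overlap, by a narrow margin (nearest values 8.84 FPKM in Wtap-BKO and 8.86 in control).

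Because Psat1, Phgdh and Psph encode the successive steps of serine synthesis, their promoter windows are shown first, as RefSeq gives them in the mouse assembly GRCm38.p6. Each window runs 5′ to 3′ from 250 bases before to 50 bases after an annotated start site, all on the minus strand. The windows are Psat1 at chr19:15925010-15925309, a second Psat1 start at chr19:15924573-15924872, Phgdh at chr3:98339920-98340219 and Psph at chr5:129787204-129787503. Capitals mark matches to the antioxidant response element TGACNNNGC on either strand.
Psat1, upstream start: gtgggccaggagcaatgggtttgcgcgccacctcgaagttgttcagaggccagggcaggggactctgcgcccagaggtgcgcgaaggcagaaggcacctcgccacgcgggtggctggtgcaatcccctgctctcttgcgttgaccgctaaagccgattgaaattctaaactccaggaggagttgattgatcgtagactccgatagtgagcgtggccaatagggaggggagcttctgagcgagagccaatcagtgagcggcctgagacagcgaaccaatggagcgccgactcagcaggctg
Psat1, second start: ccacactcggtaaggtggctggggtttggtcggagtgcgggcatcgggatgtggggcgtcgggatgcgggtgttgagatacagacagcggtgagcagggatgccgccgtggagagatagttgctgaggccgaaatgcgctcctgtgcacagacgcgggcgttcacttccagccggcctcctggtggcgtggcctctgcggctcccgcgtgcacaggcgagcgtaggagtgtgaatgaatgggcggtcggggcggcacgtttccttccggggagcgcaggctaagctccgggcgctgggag
Phgdh: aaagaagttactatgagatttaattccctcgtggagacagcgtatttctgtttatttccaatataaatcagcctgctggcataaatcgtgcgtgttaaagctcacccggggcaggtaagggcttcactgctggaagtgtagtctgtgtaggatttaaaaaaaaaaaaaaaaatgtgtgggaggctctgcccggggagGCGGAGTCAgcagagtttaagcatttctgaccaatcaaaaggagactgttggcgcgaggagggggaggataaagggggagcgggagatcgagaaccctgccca
Psph: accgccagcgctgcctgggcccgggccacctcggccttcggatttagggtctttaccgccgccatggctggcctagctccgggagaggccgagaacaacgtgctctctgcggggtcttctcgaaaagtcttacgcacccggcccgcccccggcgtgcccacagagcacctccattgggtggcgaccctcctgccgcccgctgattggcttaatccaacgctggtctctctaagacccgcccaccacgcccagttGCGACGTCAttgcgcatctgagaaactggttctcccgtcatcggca

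All 9 genes were found in the promoter table, in 10 windows. On both strands, 3 motifs were searched: the core of the C/EBP-ATF response element TGATGNAA, the E-box CACGTG and TGACNNNGC. TGATGNAA was in 3.97% and CACGTG in 7.15% of 32851 windows of 300 bases, chromosome 18 left out, and in 0 of the 10 windows of these genes. TGACNNNGC was in 12.4% of all windows and in those of Phgdh and Psph. In Phgdh the match GCGGAGTCA began 53 bases before the start site, and in Psph GCGACGTCA began at base 5 after it, both on the strand opposite to the gene. No match overlapped another. The Psat1 windows held 20 and 30 CpG dinucleotides and that of Psph 28, with 11 in Phgdh and a median of 7 over all windows. Both Psat1 starts lie inside the annotated gene, which has a longer transcript. A match of letters describes the window and says nothing on binding.

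In the control libraries Shmt1 and Phgdh were highest, at 18.6 ± 1.59 and 16.9 ± 5.47 FPKM (SD, n = 3). Aldh1l1 at 12.0 ± 2.69, Shmt2 at 11.5 ± 0.851 and Mthfd1 at 8.96 ± 0.172 FPKM followed. Then came Psph at 3.85 ± 0.746, Psat1 at 1.13 ± 0.424, Mthfd2 at 1.01 ± 0.226 and Mthfd1l at 0.202 ± 0.0869 FPKM. The control libraries of Shmt1 and Phgdh overlapped, as did those of Phgdh and Aldh1l1, those of Aldh1l1 and Shmt2 and those of Psat1 and Mthfd2. Psat1 was thus the scarcest of the 3 serine synthesis transcripts in control iBAT. In the libraries labelled Wtap-BKO Phgdh had the highest mean, and the mean of Psat1 came close to that of Psph.

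**Figure D1:**
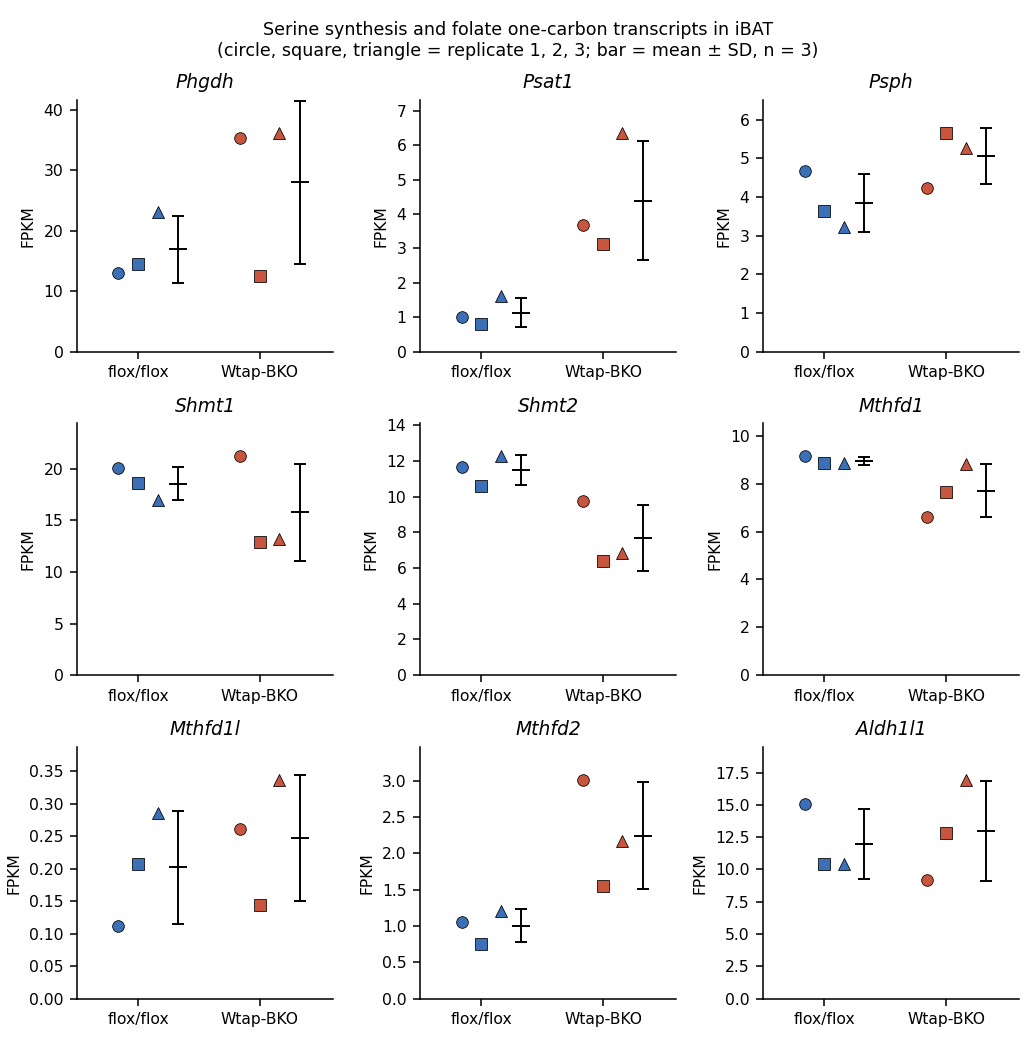
Transcript levels in FPKM (y axis, from 0) of the 9 enzymes in each library of the 2 groups (x axis); circles, squares and triangles are replicates 1, 2 and 3, and bars are mean ± SD, n = 3. Psat1 and Mthfd2 lie higher, and Shmt2 and, by a narrow margin, Mthfd1 lower, in all 3 Wtap-BKO libraries. Phgdh has 1 Wtap-BKO library at 12.4 FPKM, below all of its control values.

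A limma fit on log2(FPKM + 0.1) was run over 13507 genes, and a gene was called where its two-sided p, adjusted by the Benjamini-Hochberg method, was under 0.05. A filter on low values passed 8 of the 9 enzymes. Of these 8, 1 was called higher and 0 lower, against 6.10% of all tested genes called higher and 3.88% called lower, 9.98% together. At an unadjusted p under 0.05 there were 2 higher and 1 lower, beside 28.9% of all tested genes. The groups did not overlap for 4 of the 8, with 2 higher and 2 lower, beside 35.0% of all tested genes in either direction. The median log2 difference of the 8 was 0.24, and that of all tested genes was -0.004. With 8 genes, these counts do not set the enzymes apart from the background.

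Psat1 (ENSMUSG00000024640) lies on chromosome 19, minus strand, positions 15904678 to 15947337 and has 9 exons in its principal transcript. Its control libraries had 0.999, 0.794 and 1.61 FPKM. Those labelled Wtap-BKO had 3.67, 3.13 and 6.36 FPKM, so the lowest of them lay above the highest control. The means were 1.13 ± 0.424 and 4.39 ± 1.73 FPKM (SD, n = 3). On the log2 scale Psat1 rose by 1.85 ± 0.33 (SE), with a 95% interval from 1.06 to 2.64 and an adjusted p of 0.0212. The values rest on 55 to 108 recovered reads in control libraries and 230 to 507 in the others. Leaving out flox/flox replicate 1, flox/flox replicate 2 and Wtap-BKO replicate 3 in turn ended the call, with adjusted p-values of 0.0777, 0.0728 and 0.0528, and the log2 difference ranged from 1.55 to 2.11 over the 6 such fits. With all libraries kept, adjusted p ranged from 0.0166 to 0.0515 over 11 alternatives.

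Phgdh (ENSMUSG00000053398), the dehydrogenase that commits 3-phosphoglycerate to serine, lies on chromosome 3, minus strand, positions 98313170 to 98339990, with 12 exons. Control libraries had 13.1, 14.4 and 23.2 FPKM, and Wtap-BKO libraries 35.4, 12.4 and 36.2 FPKM. The high values were Wtap-BKO replicates 1 and 3, while replicate 2 was below every control. The log2 difference was 0.62 ± 0.44 (SE), with a 95% interval from -0.41 to 1.65 and an adjusted p of 0.394. Without Wtap-BKO replicate 2 it was 1.12, with an adjusted p of 0.0564. None of the 6 fits with 1 library left out called Phgdh, with adjusted p-values up to 0.689. Its annotated copy Phgdh-ps1 had 0.244 FPKM in flox/flox replicate 2, 0.168 in flox/flox replicate 3 and 0 in the other 4 libraries.

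Psph (ENSMUSG00000029446), the phosphatase that releases serine, lies on chromosome 5, minus strand, positions 129765558 to 129787449, with 8 exons. It had 4.68, 3.63 and 3.23 FPKM in control libraries and 4.24, 5.66 and 5.28 in those labelled Wtap-BKO. Flox/flox replicate 1 lay above Wtap-BKO replicate 1, so the groups overlapped. The log2 difference was 0.39 ± 0.18 (SE), with an adjusted p of 0.198. Psph overlaps 452 bp of Cct6a, a chaperonin subunit gene on the opposite strand with 23.3 and 21.6 FPKM in the 2 groups, and the sources used here do not say whether strand was used in counting, so reads of the shared stretch cannot be assigned with certainty.

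The ratio of Phgdh to Psat1 was lower in the libraries labelled Wtap-BKO. Phgdh exceeded Psat1 by 13.1, 18.2 and 14.4 times in control libraries and by 9.63, 3.97 and 5.69 times in the libraries labelled Wtap-BKO. These ranges do not overlap. The ratio is a description chosen after the values were seen, and was not tested. The summed FPKM of the 3 serine genes was 21.9 ± 5.31 in controls and 37.4 ± 14.2 in Wtap-BKO (SD, n = 3), with Wtap-BKO replicate 2 at 21.2, inside the control range.

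Mthfd2 (ENSMUSG00000005667) encodes the mitochondrial dehydrogenase and cyclohydrolase, an enzyme typically low in adult tissue. It lies on chromosome 6, minus strand, positions 83305691 to 83325908, with 8 exons. Control libraries had 1.06, 0.757 and 1.20 FPKM, and Wtap-BKO libraries 3.02, 1.54 and 2.17 FPKM. Each Wtap-BKO library lay above all controls. Mthfd2 was 2.23-fold higher in the mean, with a log2 difference of 1.06 ± 0.28 (SE), a 95% interval from 0.39 to 1.72 and an adjusted p of 0.0596. Of 6 fits with 1 library left out, only that without Wtap-BKO replicate 2 passed the threshold (log2 difference 1.29, adjusted p = 0.0488). In the others the adjusted p ran up to 0.162.

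Shmt2 (ENSMUSG00000025403) lies on chromosome 10, minus strand, positions 127517123 to 127522444, with 12 exons. It had 11.7, 10.6 and 12.3 FPKM in control libraries against 9.77, 6.41 and 6.82 in those labelled Wtap-BKO. All 3 Wtap-BKO values lay below the controls, with replicate 1 nearest to them. The log2 difference was -0.60 ± 0.17 (SE), with a 95% interval from -1.01 to -0.19 and an adjusted p of 0.0722. Without Wtap-BKO replicate 1 it was -0.79 and passed the threshold (adjusted p = 0.0187). This was the only 1 of 6 such fits to pass, with adjusted p-values up to 0.187 in the others. Shmt2 shares 32 bp with Ndufa4l2 on the opposite strand.

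Mthfd1l (ENSMUSG00000040675), which makes formate from the mitochondrial unit, lies on chromosome 10, plus strand, positions 3973118 to 4167081. It had 0.112, 0.208 and 0.286 FPKM in control and 0.261, 0.144 and 0.337 in Wtap-BKO libraries, on 9 to 28 recovered reads. The groups overlapped, and the level was below the filter. In the fit without a filter the log2 difference was 0.20 ± 0.40 (SE), with a limma adjusted p of 0.827.

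Within the mitochondrial arm Mthfd2 was closer to Shmt2 in the libraries labelled Wtap-BKO. Shmt2 exceeded Mthfd2 by 11.0, 14.0 and 10.2 times in control libraries and by 3.24, 4.15 and 3.14 times in Wtap-BKO libraries. Mthfd2 made up 7.85 ± 1.14% of the summed FPKM of Shmt2, Mthfd2 and Mthfd1l in controls and 21.8 ± 2.39% in Wtap-BKO (SD, n = 3). The sum itself was 12.7 ± 1.10 and 10.2 ± 2.58 FPKM and overlapped between the groups. Ratios were chosen after their values were seen and have no test. Since Mthfd2 lay above and Shmt2 below every control, the separation of their ratio follows from those values and adds no result.

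**Figure D2:**
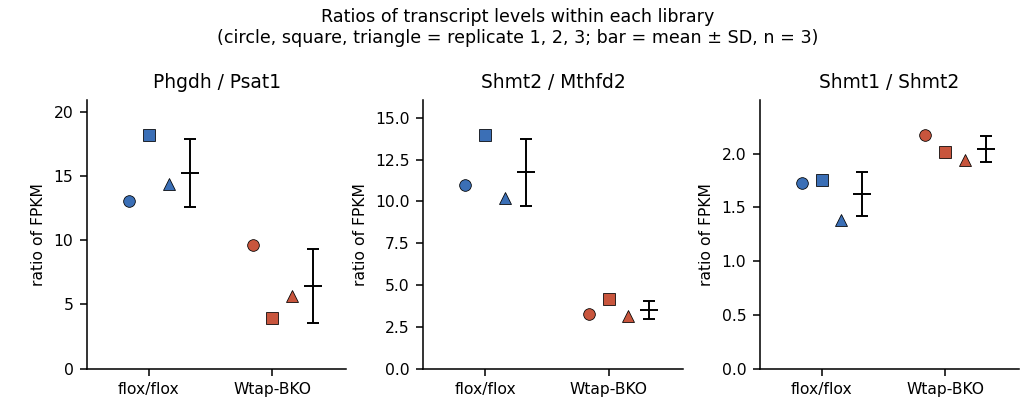
Ratios of FPKM (y axis, from 0) between pairs of enzymes within each library of the 2 groups (x axis); circles, squares and triangles are replicates 1, 2 and 3, and bars are mean ± SD, n = 3. Phgdh over Psat1 and Shmt2 over Mthfd2 are lower in all 3 Wtap-BKO libraries than in any control, and Shmt1 over Shmt2 is higher. These pairs were chosen after their values were seen. Of ratios not drawn, Mthfd1 over Mthfd2 also separated the groups, while Mthfd2 over Mthfd2l, another folate gene, overlapped. The cytosolic over mitochondrial folate sum and the Phgdh share of the serine synthesis sum overlapped as well.

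In the cytosolic arm no gene was called. Shmt1 (ENSMUSG00000020534), on chromosome 11, minus strand, positions 60788104 to 60811718, had 20.1, 18.6 and 17.0 FPKM in controls and 21.2, 12.9 and 13.2 in Wtap-BKO. Wtap-BKO replicate 1 was the highest of the 6 and the other two the lowest. The log2 difference was -0.27 ± 0.20 (SE), adjusted p = 0.424. Without Wtap-BKO replicate 1 it was -0.50 and passed the threshold (adjusted p = 0.0476). This was the only 1 of 6 such fits to pass, with adjusted p-values up to 0.714 in the others. Shmt1 over Shmt2 was 1.62 ± 0.208 in controls and 2.04 ± 0.120 in Wtap-BKO (SD, n = 3), with no overlap and no test.

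Mthfd1 (ENSMUSG00000021048), the trifunctional cytosolic folate enzyme, lies on chromosome 12, plus strand, positions 76255298 to 76319803, with 28 exons. It was even across controls, at 9.16, 8.86 and 8.86 FPKM, and spread wider in Wtap-BKO, at 6.63, 7.64 and 8.84 FPKM. The highest Wtap-BKO value lay just under the lowest control, and the log2 difference was -0.22 ± 0.13 (SE), adjusted p = 0.287. Aldh1l1 (ENSMUSG00000030088), on chromosome 6, plus strand, positions 90486427 to 90600203, had 15.1, 10.5 and 10.4 FPKM in controls and 9.20, 12.8 and 17.0 in Wtap-BKO. These ranges overlap almost wholly, with a log2 difference of 0.09 ± 0.25 (SE), a 95% interval from -0.49 to 0.68 and an adjusted p of 0.839. Its sign turned without Wtap-BKO replicate 3, at -0.12.

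**Figure D3:**
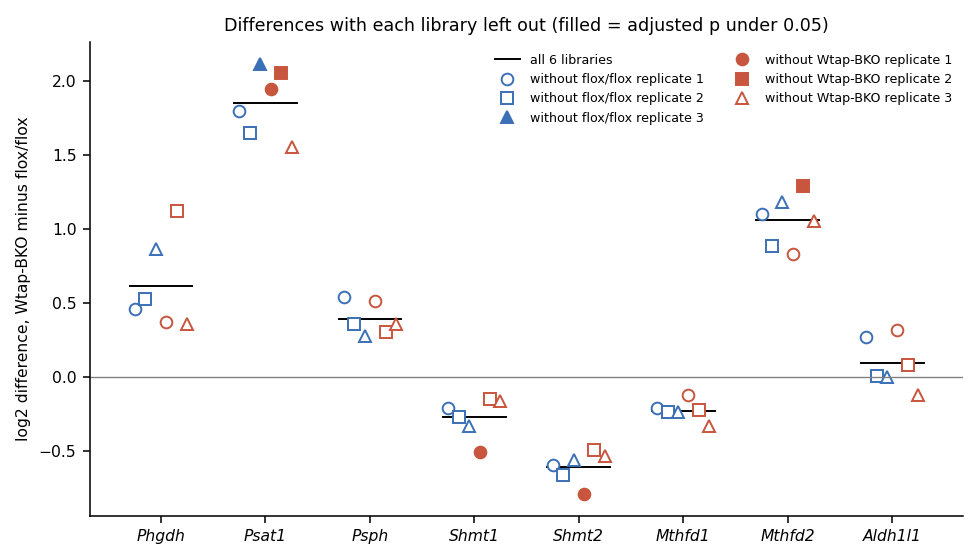
Log2 difference of the 8 tested enzymes (y axis, Wtap-BKO minus flox/flox) with all 6 libraries (line) and with each library left out (points, shape and colour by the library left out); filled points have an adjusted p under 0.05. Psat1 stays between 1.55 and 2.11 and is called in 3 of 6 fits, and Shmt1, Shmt2 and Mthfd2 are each called in 1.

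Genes around the pathway were taken from lists, each given by its counts beside the 6.10% and 3.88% of all genes. Of 21 other folate genes, 15 were tested, 2 were called higher and 1 lower. Both higher ones bring folate into the cell. Slc19a1, the reduced folate carrier, had 8.57, 8.32 and 7.16 FPKM in controls and 16.3, 22.1 and 18.8 in Wtap-BKO, a clear separation. It rose by 1.23 ± 0.14 (SE) on the log2 scale, adjusted p = 0.00637, and stayed called with each library left out in turn. Slc46a1, the proton-coupled folate transporter, had 2.26, 2.81 and 2.10 FPKM against 5.07, 6.45 and 4.87, and rose by 1.16 ± 0.17 (SE), adjusted p = 0.0116. Leaving out flox/flox replicate 1 ended its call (adjusted p = 0.0509).

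The called gene that fell was Mtr, methionine synthase, which passes the methyl group of folate to homocysteine. Mtr had 5.56, 5.43 and 4.96 FPKM in controls and 3.40, 3.28 and 3.07 in Wtap-BKO, with tight and separate groups. The log2 difference was -0.69 ± 0.11 (SE), adjusted p = 0.0145, and the call ended with flox/flox replicate 1, flox/flox replicate 2 and likewise Wtap-BKO replicate 3 left out in turn, with adjusted p-values up to 0.0658. In the methionine cycle and transsulfuration list, 9 of 13 genes were tested, 0 were higher and 1 was lower. This was Mat2b, the regulatory subunit of methionine adenosyltransferase, at 19.4, 18.3 and 18.6 FPKM against 14.0, 12.8 and 12.9. It fell by 0.50 on the log2 scale (SE 0.09, adjusted p = 0.0211), and leaving out any library other than Wtap-BKO replicate 1 ended the call, with adjusted p-values up to 0.0831.

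Among 21 genes of serine transport and use, 17 were tested, 2 were higher and 0 lower. Sfxn1, the mitochondrial serine carrier, had 14.4, 13.8 and 9.34 FPKM in controls and 18.4, 26.3 and 25.4 in Wtap-BKO. Its log2 difference was 0.90 ± 0.21 (SE), adjusted p = 0.0423, and only the fit without Wtap-BKO replicate 1 kept the call among those with 1 library left out, with adjusted p-values up to 0.119. Slc7a10, a transporter of small neutral amino acids including serine, had 1.20, 1.22 and 1.80 FPKM against 4.16, 4.66 and 13.1, the last value standing apart. It rose by 2.12 ± 0.43 (SE), adjusted p = 0.0286, with the call lost without any 1 of the control libraries, with adjusted p-values up to 0.0972.

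**Figure D4:**
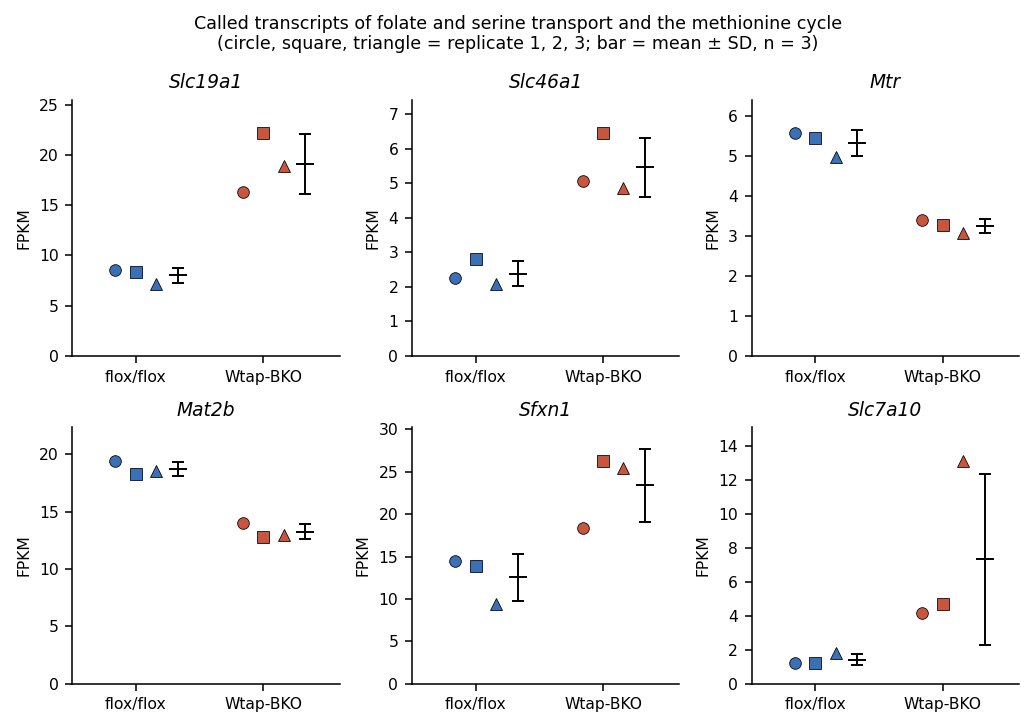
Levels in FPKM (y axis, from 0) of the 6 called genes of folate transport, serine transport and the methionine cycle in each library of the 2 groups (x axis); circles, squares and triangles are replicates 1, 2 and 3, and bars are mean ± SD, n = 3. Slc19a1, Slc46a1, Sfxn1 and Slc7a10 lie higher, and Mtr and Mat2b lower, in all 3 Wtap-BKO libraries.

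The lists of glycine cleavage and of lower glycolysis had no call. In the glycine cleavage system, which splits glycine in mitochondria, 3 of 4 genes were tested, and the smallest p was that of Gcsh, at 92.0 ± 8.07 and 77.5 ± 9.89 FPKM (SD, n = 3; limma adjusted p = 0.243). All 4 genes of lower glycolysis were tested, and the smallest p was that of Gapdh, at 10.7 ± 8.39 and 4.93 ± 2.33 FPKM (SD, n = 3; limma adjusted p = 0.302). The control mean of Gapdh rests on flox/flox replicate 2, a muscle-rich library, at 20.4 FPKM beside 5.45 and 6.27 in the other controls. Wtap-BKO replicate 3, which had the highest muscle sum, had 7.52 FPKM, the highest Gapdh of its group. The part of muscle in these values was not tested. Without flox/flox replicate 2 the log2 difference of Gapdh moved from -0.94 to -0.34.

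ATF4 and stress response genes were counted beside the enzymes, since the list holds known neighbours of Psat1 in that program. Of 18 genes, 15 were tested, with 3 higher and 1 lower. Eif4ebp1, a repressor of translation, rose from 79.9 ± 8.64 to 154.7 ± 8.97 FPKM (SD, n = 3; limma adjusted p = 0.00711). Trib3, a pseudokinase, and Chac1, which degrades glutathione, were higher with adjusted p-values of 0.0107 and 0.0384. Sesn2, a leucine sensor, fell with an adjusted p of 0.0319. The calls of Chac1 and Sesn2 were lost without any 1 control library, with adjusted p-values up to 0.103 and 0.109, and that of Chac1 also without Wtap-BKO replicate 2 or 3. Atf4 itself and Asns, the asparagine synthetase gene, were not called, with adjusted p-values of 0.719 and 0.251.

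**Figure D5:**
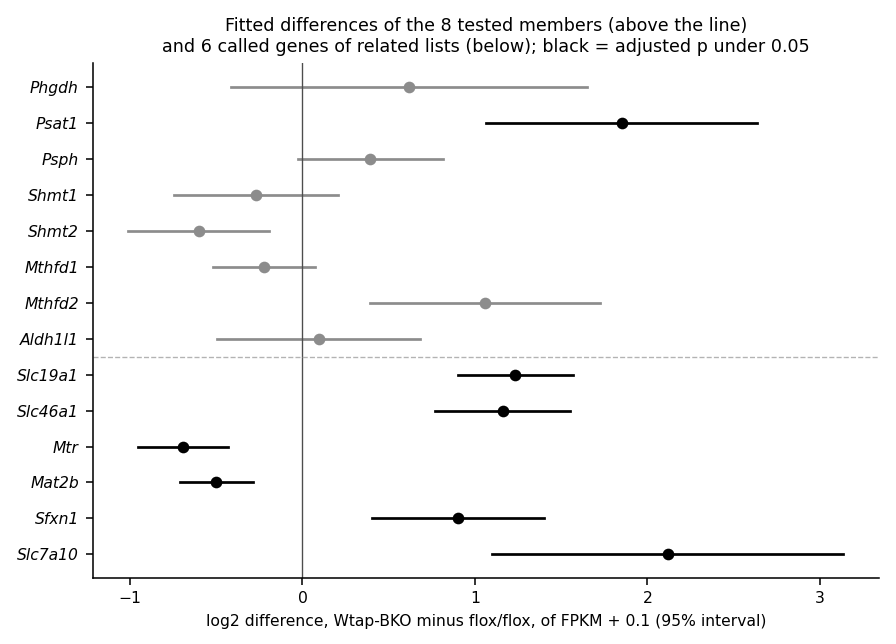
Fitted log2 differences of FPKM + 0.1 (x axis, Wtap-BKO minus flox/flox) with 95% intervals for the 8 tested enzymes. Under the dashed line are the 6 called genes of folate transport, serine transport and the methionine cycle. The called stress response genes are not drawn. Black marks an adjusted p under 0.05. Among the enzymes Psat1 is called, and the intervals of Mthfd2 and Shmt2 lie on opposite sides of 0 without passing the adjusted threshold.

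Among 11818 tested genes with at least 1 FPKM on average, the profiles most like that of Psat1 over the 6 libraries were those of Col18a1, a basement membrane collagen, and Adcy5, an adenylate cyclase, together with Cd14, a macrophage coreceptor. Their mean absolute log2 distances from Psat1 were 0.215, 0.222 and 0.219. Distance was measured between profiles centred on their own means, and it is a description over 6 libraries with no test.

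The libraries held 15979694 to 19005123 recovered reads. Ucp1, the uncoupling protein of brown fat, marked all 6 libraries as brown fat, at 1769 ± 264 FPKM in controls and 358.3 ± 118.6 in Wtap-BKO (SD, n = 3; limma adjusted p = 0.00495). Marker lists of cell types are read beside the 6.10% and 3.88% of all genes called higher and lower. Of 14 macrophage markers 13 were tested and 4 were higher, and their summed level was 172 to 257 FPKM in controls and 262 to 392 in Wtap-BKO, with none of the list at 0 in every library. Wtap-BKO replicate 2 had the lowest macrophage and fibroblast sums and the highest brown adipocyte sum of its group. In that library Phgdh, Psat1, Shmt1, Shmt2, Mthfd1l and Mthfd2 were the lowest of the group and Psph was the highest. Mthfd1 and Aldh1l1 lay between the other replicates. Psat1 was 3.67 FPKM in Wtap-BKO replicate 1, with a macrophage sum of 392, and 6.36 FPKM in replicate 3, with 346. Fibroblast markers summed to 218 to 274 and 261 to 404 FPKM, ranges that overlap, with 1 of 12 higher, and brown adipocyte markers to 6618 to 8848 and 3558 to 4846, with 4 of 12 lower. Of general adipocyte markers 1 of 8 was higher, and 1 of 2 tested B cell and 1 of 6 tested Schwann cell and nerve markers were lower. None of the tested endothelial, smooth muscle and pericyte, T cell, neutrophil, mast cell, erythroid or skeletal muscle markers was called, and 0 epithelial markers passed the filter. Mitochondrially encoded genes took 18.3% to 22.4% of control reads and 11.0% to 12.2% of Wtap-BKO reads. The part of these levels in the results was not tested, and fewer cells of a type cannot be told apart from less RNA per cell in bulk tissue. Without both muscle-rich libraries the log2 difference of Psat1 was 1.35 with an adjusted p of 0.146, in a fit that called 0 genes with limma and had 1294 higher and 923 lower at an unadjusted p under 0.05. In the same fit the log2 differences of Phgdh, Mthfd2 and Shmt2 were 0.27, 0.88 and -0.59.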

How the data were processed

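The authors aligned paired reads to GRCm38.p6 with HISAT2 2.0.5, counted them per gene with featureCounts 1.5.0-p3 and used DESeq2 1.16.1 for testing, as the labels and methods state. The deposited values are FPKM with gene lengths, which the authors had scaled between libraries. Every nonzero FPKM times its length was a whole multiple of 1 read within 0.01 (100%), which gave reads per gene and totals of 15979694 to 19005123, and so a like precision. The study calls replicates biological.

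The scale was log2(FPKM + 0.1), on which changes of low genes are understated. Genes averaging 0.5 FPKM and 10 reads or more were fitted with limma 3.58.1 in R 4.3.3, a variance trend, group as the only term and Benjamini-Hochberg adjustment. The procedure was run on simulated independent counts with the same dispersion for every gene and no muscle-rich library. That setting is simpler than these data, so the run cannot vouch for the calls here. Unnamed loci held at most 0.151% of reads. Replicates differed beyond sampling noise (lowest chi-square per degree of freedom 22.6). Positions are those of the deposited table, and exon counts come from GENCODE of the same assembly. Members and lists were chosen with earlier results of these data known, as were the muscle-rich libraries left out together. All 9 members were named, and from each list the called genes or, with none, that of smallest p. Atf4 and Asns were named outside this rule after their values were seen. Alternatives were pseudocounts, filters, scalings, voom, variance settings, thresholds, each library left out and a replicate block.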

Additional observations from a re-analysis of the deposited data

How the results depend on the processing

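Leaving out 1 library gave 229 to 851 genes called higher and 93 to 425 called lower, against 824 and 524 with all 6, and 0 to 2 of the enzymes higher and 0 to 2 lower. Without any filter there were 442 higher and 245 lower, and 0 enzymes higher (Psat1, adjusted p = 0.0515). Library size alone gave 310 lower and 1113 higher, so 78.2% of calls were higher against 61.1%; the median log2 difference of all genes was then 0.08. Without both muscle-rich libraries 0 genes were called higher, 0 lower and 0 enzymes higher. At an unadjusted p under 0.05 there were 2116 higher and 1781 lower, with 2 and 1 enzymes. Aldh1l1 ran from -0.12 (without Wtap-BKO replicate 3) to 0.32 with 1 library left out and turned to -0.20 without both muscle-rich libraries. The other 8 enzymes kept their direction wherever fitted, Mthfd1l in 1 fit. Psat1 was called under 10 of 11 alternatives that kept all libraries. Mthfd2 was not tested at a mean of at least 2 FPKM. The cause of these shifts was not tested. With the replicate number as a block, 211 genes were higher and 97 lower, and Psat1 kept its call (adjusted p = 0.0338). Deviations of same-numbered libraries from their group means correlated at -0.0536, -0.396 and -0.270, and no library correlated best with its own number. The highest correlation, 0.559, joined the muscle-rich libraries. Deviations from means of 3 depend on each other, so these values cannot exclude a pairing of the samples. The values of Mthfd1l rest on 9 to 28 reads a library, the lowest depth of the 9 enzymes.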
